A study of Mus musculus with 9 samples.

Results

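The nuclear genes for subunits of the mitochondrial respiratory chain and ATP synthase were examined in liver RNA of male mice from 3 groups of 3 libraries. Members were the rows of the deposited gene table whose name starts with Nduf followed by a, b, c, s or v and a number, with Uqcr, with Cox and a number from 4 to 8, or with Atp5, together with Sdha, Sdhb, Sdhc, Sdhd, Cyc1 and Cycs. Names carrying a pseudogene mark (-ps) were left out, and at least 10 counts summed over the 9 libraries were required. This gave 85 genes of 55401 gene rows, 20630 of which had any count. Of these, 36 were placed in complex I, 4 in complex II, 9 in complex III, 1 was cytochrome c, 18 belonged to complex IV and 17 to ATP synthase (complex V). Ndufa4, which is named for complex I but is a subunit of complex IV, was counted there. Of the 85, 80 passed the filter on low counts and were tested, and the 5 that did not were Ndufa4l2, Cox6a2, Cox6c2, Ndufs6b and Cox8b. Ndufs6b and Cox6c2 are annotated as processed pseudogenes, but their names lack the mark, so they were counted under complexes I and IV. Cox8b, with 24 counts in all libraries together, was the member nearest to the minimum, and Cox4i2, with 8 counts, all in STAM replicate 2, lay just outside it.

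In the STAM + Atglistatin group (replicates 4 to 6), males received 200 µg of streptozotocin under the skin at 2 days of age and, from 4 weeks of age, a high-fat diet with Atglistatin for 4 weeks. Streptozotocin kills insulin-producing beta cells, and Atglistatin inhibits adipose triglyceride lipase, the enzyme that begins triglyceride breakdown. The STAM group (replicates 1 to 3) had the same injection and the high-fat diet without the inhibitor. The chow group (replicates 7 to 9) had neither streptozotocin nor Atglistatin and ate chow, so that injection and diet cannot be told apart in any comparison with it. The strain is not given in the sources used here, and groups follow the sample titles, which the separate treatment entry contradicts for the STAM and chow samples. The labels do not state that each library came from a different mouse, and the p-values set group differences against the spread between these libraries.

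Respiratory complexes pass electrons from NADH (complex I) and succinate (complex II) through coenzyme Q, complex III and cytochrome c to oxygen at complex IV, and ATP synthase uses the proton gradient this builds. Most subunits are encoded in the nucleus and imported, whereas the mitochondrial genome encodes a few membrane subunits of every complex but complex II, so both genomes contribute to most complexes. In hepatocytes the chain oxidises the NADH and reduced flavins that fatty acid oxidation yields. Transcription of the nuclear subunit genes is known to draw on shared factors such as NRF1, GABP, ERR-alpha and YY1.

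Promoter sequence is shown for the 2 genes that passed a test below, for the partner isoform of one of them and for 2 further members, because the nuclear genes are known to share these factors. RefSeq promoter windows on GRCm38.p6, from 250 bases before to 50 bases after a transcript start, were found for 68 of the 85 genes (73 windows). The letters GCGC, any 2 bases and GCGC again (NRF1-type), searched on both strands as were the other motifs, were in 26% of these windows, against 6.23% of all 32851 windows. CCGGAAG (ETS/GABP-type) was in 23.3% of them, against 8.86% of all windows, and AANATGGC (YY1-type) in 23.3%, against 6.05%. TCAAGGTCA (ERR-type) was in 2.74%, against 0.423%, and at least 1 of the 4 motifs was in 63.0%, against 19.1%. The median GC content was 57.7% in the members' windows, against 52.7% in all windows, and its part in these shares was not tested. A match describes letters in a window and does not show a bound site. Below, capitals mark the motif: the NRF1-type letters before the RefSeq start of Ndufa5 (chr6:24527697-24527726, minus strand), the ETS/GABP-type letters at Sdhb (chr4:140961266-140961295, plus strand) and Cox6b1 (chr7:30626124-30626153, minus strand), and the whole 250 bases before the start of Ndufb6 (chr4:40279422-40279671, minus strand) with an ETS/GABP-type match. The last sequence is the 131 bases before the start of Cox6b2 (chr7:4753095-4753225, minus strand), back to the end of the upstream gene Fam71e2. It holds none of the 4 motifs and so has no capitals.
Ndufa5: tgtgtgagctGCGCAGGCGCaaatctacct
Sdhb: gctcggagaaaCCGGAAGcggccttccact
Cox6b1: tcctctcgcagCTTCCGGccagtcggaatt
Ndufb6: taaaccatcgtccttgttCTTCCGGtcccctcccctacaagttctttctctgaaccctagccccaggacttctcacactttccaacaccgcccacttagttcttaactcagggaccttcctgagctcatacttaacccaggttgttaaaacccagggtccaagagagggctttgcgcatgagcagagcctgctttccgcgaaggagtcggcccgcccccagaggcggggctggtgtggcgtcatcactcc
Cox6b2: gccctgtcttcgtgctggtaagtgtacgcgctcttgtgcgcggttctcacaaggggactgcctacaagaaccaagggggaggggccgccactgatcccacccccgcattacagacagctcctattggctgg

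**Figure D1:**
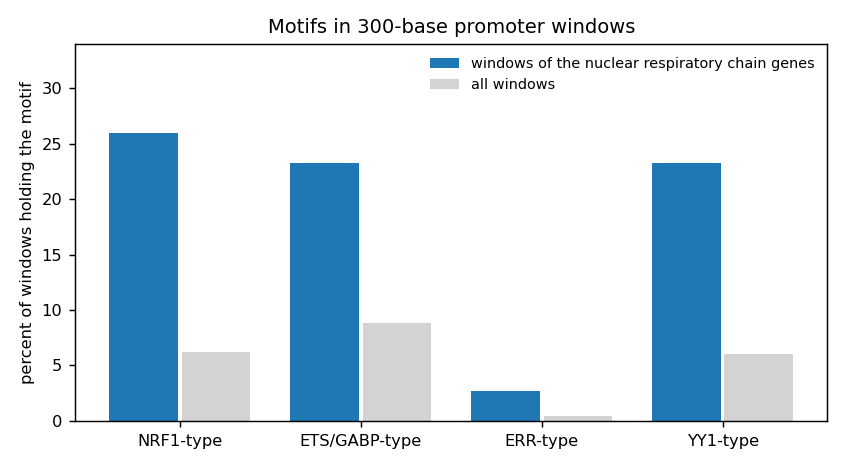
Share of 300-base promoter windows holding each motif on either strand, in percent, for the 73 windows of the nuclear respiratory chain genes (blue) and for all 32851 windows (grey). Each of the 4 motifs was in a larger share of the members' windows, and the ERR-type motif was rare in both.

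Libraries held 7380365 to 9886129 gene counts. Hepatocyte markers (6 genes) summed to 69000 to 70370 CPM (counts scaled to a common library size) in STAM + Atglistatin, 47530 to 57400 in STAM and 89260 to 101300 in chow, so that liver RNA was plain in every library. In bulk tissue, fewer cells of a type and less RNA per cell cannot be told apart. Chow replicate 7 differed from the 2 further chow libraries in summed proliferation markers (77 CPM, against 8.20 and 13.9 CPM) and in stellate cell markers (695 CPM, against 431 and 443 CPM). The members' median log2 fold changes over chow are given with and without it. Medians and counts of single complexes are given only with it.

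Members took 2.79%, 2.53% and 2.56% of counts in the STAM + Atglistatin libraries, 2.54%, 2.52% and 2.57% in STAM, and 2.30%, 2.34% and 2.23% in chow. Of the 80 genes tested, 69 averaged at least 100 CPM after TMM scaling, which adjusts each library for a few abundant genes that take up counts. After that scaling the members' sums were 27630, 24910 and 24850 CPM in STAM + Atglistatin, 24070, 24590 and 26140 CPM in STAM, and 22290, 25140 and 24360 CPM in chow. On counts alone both STAM groups lay above chow in every library, and on the TMM scale the groups overlapped. Within a group the median coefficient of variation of the members was 8.57%, against 20.3% over all genes tested, and 73 of 80 members lay under 20%. Most members were abundant and the 2 medians were not matched for level, so the difference is not read as a trait of this set. The low-count members Cox6b2 (82.6%) and Atp5g2 (44.5%) varied more, as did Sdhd (46.2%). Reads here mark 3' ends and levels are not compared between genes.

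Libraries differed from one another in the position of the whole set. The median member stood, relative to the chow mean on the log2 scale, at 0.23, 0.056 and 0.11 in STAM + Atglistatin replicates 4, 5 and 6, at 0.012, 0.052 and 0.14 in STAM replicates 1, 2 and 3, and at -0.10, 0.070 and 0.031 in chow replicates 7, 8 and 9. STAM + Atglistatin replicate 4 was the highest, with 70 of 80 members above the chow mean, and chow replicate 7 the lowest, with 13 of 80. The pooled SD of these medians within groups was 0.083, about the size of the differences between groups given below.

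**Figure D2:**
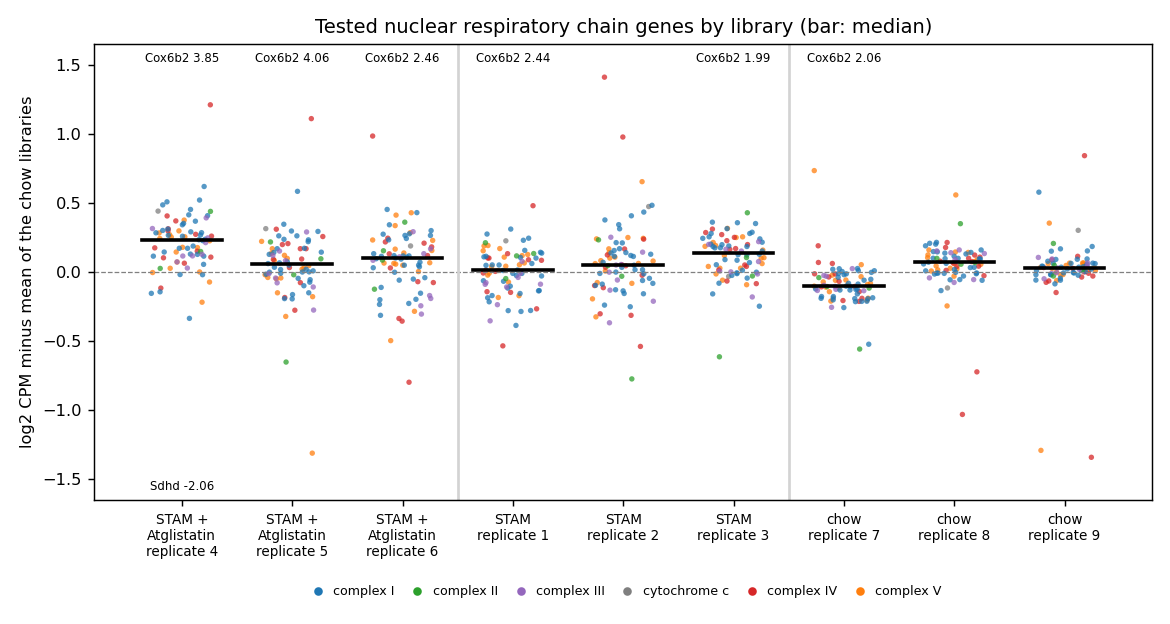
Each point is 1 of the 80 tested nuclear respiratory chain genes in 1 library, as log2 CPM minus the mean of the chow libraries, coloured by complex; black bars are medians, and genes beyond the axis are written with their value. The medians run from -0.10 in chow replicate 7 to 0.23 in STAM + Atglistatin replicate 4, and libraries of different groups overlap.

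Atglistatin on top of the STAM regimen left these genes without a change that passed the test. In STAM + Atglistatin against STAM, 0 of 80 members passed an edgeR quasi-likelihood adjusted p of 0.05 (Benjamini-Hochberg over 12660 genes), against 1.79% of all genes tested, and 0 passed with DESeq2 or limma-voom. Of all genes, 1.04% were called higher and 0.742% lower. At an unadjusted p under 0.05, 4 members (5%) were higher and 0 lower, against 5.09% and 5.06% of all genes. The median log2 fold change of the members was 0.053, against -0.00071 for all genes, and 58 of 80 were above 0. Without STAM + Atglistatin replicate 4 that median was -0.0047, against -0.0082 for all genes in that fit, and 39 of 81 members were above 0. The 95% interval of the fold change lay within 1.5-fold either way for 72 of 80 members and within 2-fold for 77.

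The 4 genes below an unadjusted 0.05 were 3 accessory subunits of complex I and the complex IV isoform Cox6b2, which is described further on. Ndufb6, of the membrane arm, was at 202, 169 and 173 CPM in STAM + Atglistatin, 135, 146 and 154 CPM in STAM, and 131, 150 and 142 CPM in chow. Its inhibitor-treated libraries lay above all others, with a log2 fold change over STAM of 0.33 ± 0.12 (SE; edgeR adjusted p = 0.300). Ndufb6 shares its locus with Smim27 on the other strand, so reads of the 2 cannot be told apart without strand. Ndufa8, an accessory subunit on the intermembrane side, was at 346, 309 and 264 CPM in STAM + Atglistatin, 218, 233 and 280 CPM in STAM, and 247, 233 and 249 CPM in chow. Its STAM + Atglistatin values overlapped those of STAM and lay above those of chow, with a log2 fold change over STAM of 0.33 ± 0.13 (edgeR adjusted p = 0.338). Ndufb10, also of the membrane arm, was at 235, 218 and 250 CPM in STAM + Atglistatin, 193, 200 and 197 CPM in STAM, and 169, 205 and 183 CPM in chow. All its inhibitor-treated libraries were the higher ones, by 0.25 ± 0.12 over STAM (edgeR adjusted p = 0.478). In all, 7 members had every STAM + Atglistatin library above every STAM library (8.75%, against 8.58% of all genes), and 0 had every one below (8.45% of all genes).

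Against chow, the STAM + Atglistatin livers gave the only calls among the members, both higher. These were Ndufa5 and Cox6b2, 2 of 80, against 2.10% of all genes called higher and 4.08% called in either direction. Neither DESeq2 (2 calls) nor limma-voom (1 call, Ndufa5) called a member lower, and in the authors' deposited table the same 2 genes of 81 members with an adjusted p were under 0.05. Of all genes, 1.97% were called lower. At an unadjusted p under 0.05, 10 members (12.5%) were higher and 0 lower, against 7.47% and 7.36% of all genes. The median log2 fold change of the members was 0.10, against -0.0041 for all genes, with 64 of 80 above 0. It was 0.048 without chow replicate 7, against 0.015 for all genes in that fit, with 52 of 80 above 0. Without STAM + Atglistatin replicate 4 it was 0.052, against -0.0088, with 54 of 81 above 0. Groups did not overlap, with STAM + Atglistatin above chow, for 16 members (20%, against 9.60% of all genes), and for 0 members with it below (9.03% of all genes).

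Ndufa5, an accessory subunit of the peripheral arm of complex I (chr6:24518666-24528013, minus strand, GRCm38), was at 332, 364 and 287 CPM in STAM + Atglistatin, 301, 328 and 294 CPM in STAM, and 243, 241 and 243 CPM in chow. All 6 libraries of streptozotocin-injected, fat-fed mice lay above all 3 chow libraries, which were nearly equal. It rose in STAM + Atglistatin over chow by 0.43 ± 0.12 on the log2 scale (edgeR adjusted p = 0.0455). In STAM over chow the difference was 0.34 ± 0.12 (edgeR adjusted p = 0.139). The call is near the threshold: it held in 7 of 15 other analyses, with adjusted p from 0.00739 to 0.214 and log2 fold changes from 0.35 to 0.52. It was lost without any 1 of STAM + Atglistatin replicates 4 or 5, chow replicates 8 or 9, or any STAM library (adjusted p = 0.0597 to 0.214), and with only the 2 groups compared (0.0960). No other annotated gene overlaps it.

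**Figure D3:**
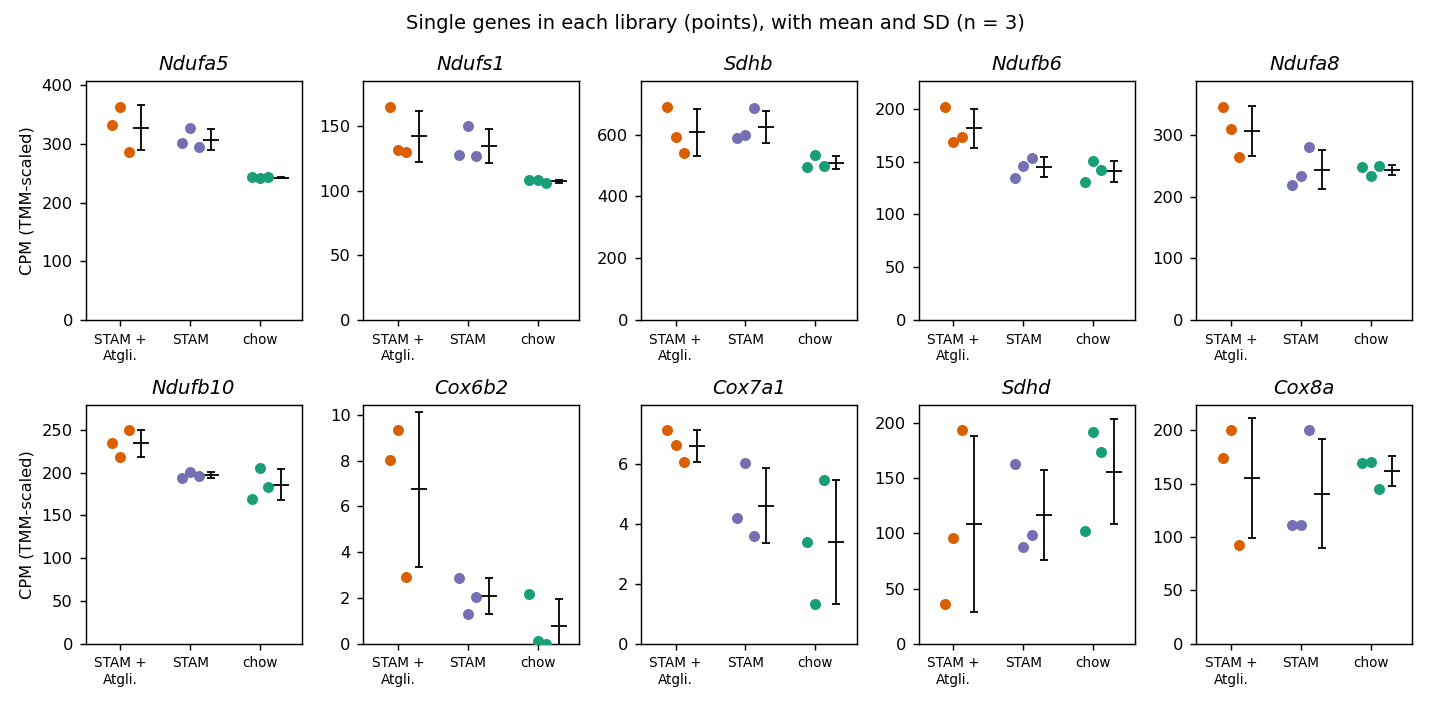
CPM of 10 members in each library (points), with mean and SD of 3 libraries beside them, for STAM + Atglistatin, STAM and chow. Ndufa5 and Ndufs1 lie lower in all 3 chow libraries than in the other 6, while Sdhd and Cox8a spread widely within STAM + Atglistatin and STAM.

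Cox6b2 encodes the isoform of subunit 6b of complex IV that is known from testis, and its counts here were low. There were 80, 90 and 27 counts in STAM + Atglistatin, 26, 11 and 17 in STAM, and 21, 1 and 0 in chow. That is 8.03, 9.33 and 2.92 CPM in STAM + Atglistatin, 2.88, 1.30 and 2.04 CPM in STAM, and 2.16, 0.121 and 0 CPM in chow. Replicates 4 and 5 with Atglistatin were highest, replicate 6 was near STAM replicate 1, and 21 of the 22 chow counts were in replicate 7. Cox6b2 rose over chow by 3.02 ± 0.82 on the log2 scale (edgeR adjusted p = 0.0455), and its difference over STAM was 1.70 ± 0.75 (edgeR adjusted p = 0.431). The authors' deposited values are smaller, at 1.09 ± 0.284 over chow and 0.73 ± 0.285 over STAM. In the 15 other analyses here, DESeq2 included, the value over chow was 2.51 to 6.40. How the authors' fold changes were fitted was not examined, so the sizes are not compared. The call over chow held in 5 of 15 other analyses (adjusted p = 3.83e-05 to 0.205). It was lost without STAM + Atglistatin replicates 4 or 5, chow replicates 8 or 9, or any STAM library (adjusted p = 0.0556 to 0.205). With limma-voom the adjusted p was 0.0524, with only the 2 groups compared 0.0886 and with library totals 0.05 after rounding, none of which passed. Without chow replicate 7 the fitted value of 6.40 rests on 1 chow count. STAM over chow, at 1.33 ± 0.84 with all libraries (edgeR adjusted p = 0.526), also passed without that replicate (0.00775), on the same 1 chow count. Beside its ubiquitous partner Cox6b1, Cox6b2 made up 1.98%, 2.47% and 1.14% of the pair's counts in STAM + Atglistatin, 1.07%, 0.503% and 0.567% in STAM, and 0.678%, 0.0374% and 0% in chow. The exact 95% intervals ran from 0.753% to 3.02% in STAM + Atglistatin, and in chow replicate 9 the upper bound was 0.170%; intervals cover counting error only. Cox6b2 lies at chr7:4751792-4753094 on the minus strand, 131 bases downstream of Fam71e2 on the same strand, and overlaps no annotated gene.

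STAM against chow gave 0 of 80 members by edgeR, against 3.94% of all genes tested, and 0 by DESeq2 or limma-voom. Of all genes, 1.95% were called higher and 1.99% lower. At an unadjusted p under 0.05, 5 members (6.25%) were higher and 0 lower, against 7.24% and 7.31% of all genes. The 5 were Ndufa5, Ndufs1, Sdhb, Ndufb7 and Ndufa12. The median log2 fold change was 0.057, against -0.0014 for all genes, with 52 of 80 above 0. Without chow replicate 7 it was 0.016, below the 0.027 of all genes in that fit, with 45 of 80 above 0. The interval lay within 1.5-fold for 71 members and within 2-fold for 76. All STAM libraries were above all chow libraries for 14 members (17.5%, against 10.6% of all genes) and below them for 2, Uqcr11 and Ndufs8 (2.50%, against 10.2% of all genes).

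Of the nuclear core subunits of complex I described here, the conserved ones that carry out electron transfer, none passed by edgeR with TMM scaling. Ndufs1, the largest, which holds iron-sulfur clusters, came nearest, at 165, 132 and 130 CPM in STAM + Atglistatin, 127, 150 and 127 CPM in STAM, and 108, 108 and 106 CPM in chow. As with Ndufa5, the chow libraries were the 3 lowest and nearly equal. The log2 difference was 0.41 ± 0.13 for STAM + Atglistatin over chow (edgeR adjusted p = 0.107) and 0.33 ± 0.13 for STAM over chow (0.225). Ndufs1 over chow in STAM + Atglistatin passed in 1 of 15 other analyses, with library totals as the scaling (log2 0.49, edgeR adjusted p = 0.0446). Ino80dos, Gm24557 and Eef1b2 overlap Ndufs1 on the other strand, so their reads cannot be told apart without strand. The same limit holds for Ndufs3, Ndufv2, Ndufa2, Sdha, Uqcrc2, Cox4i1, Cox5a, Cox6c and Atp5a1, each of which an annotated gene overlaps on the other strand. It also holds for Uqcrb and Atp5l, and for the low-count members Cox6a2, Ndufa4l2 and Ndufs6b. Ndufs8, another iron-sulfur subunit, ran the other way, at 107, 96.7 and 87.1 CPM in STAM + Atglistatin, 89.2, 91.8 and 102 CPM in STAM, and 110, 111 and 104 CPM in chow (log2 -0.16 ± 0.13 for STAM + Atglistatin over chow, edgeR adjusted p = 0.626). The NADH-binding Ndufv1 averaged 235 ± 40.2 CPM in STAM + Atglistatin, 243 ± 9.95 in STAM and 233 ± 15.1 in chow (SD, n = 3 each). Ndufs3, Ndufs7 and Ndufv2 had log2 differences between -0.037 and 0.16 in the 3 comparisons, with intervals that include 0. Among the 28 accessory subunits tested, the median log2 fold change was 0.065 for STAM + Atglistatin over STAM, 0.10 for STAM + Atglistatin over chow and 0.040 for STAM over chow. The accessory subunit gene Ndufa2 averaged 481 ± 53.2 CPM in STAM + Atglistatin, 466 ± 11.8 in STAM and 424 ± 2.72 in chow (SD, n = 3 each).

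**Figure D4:**
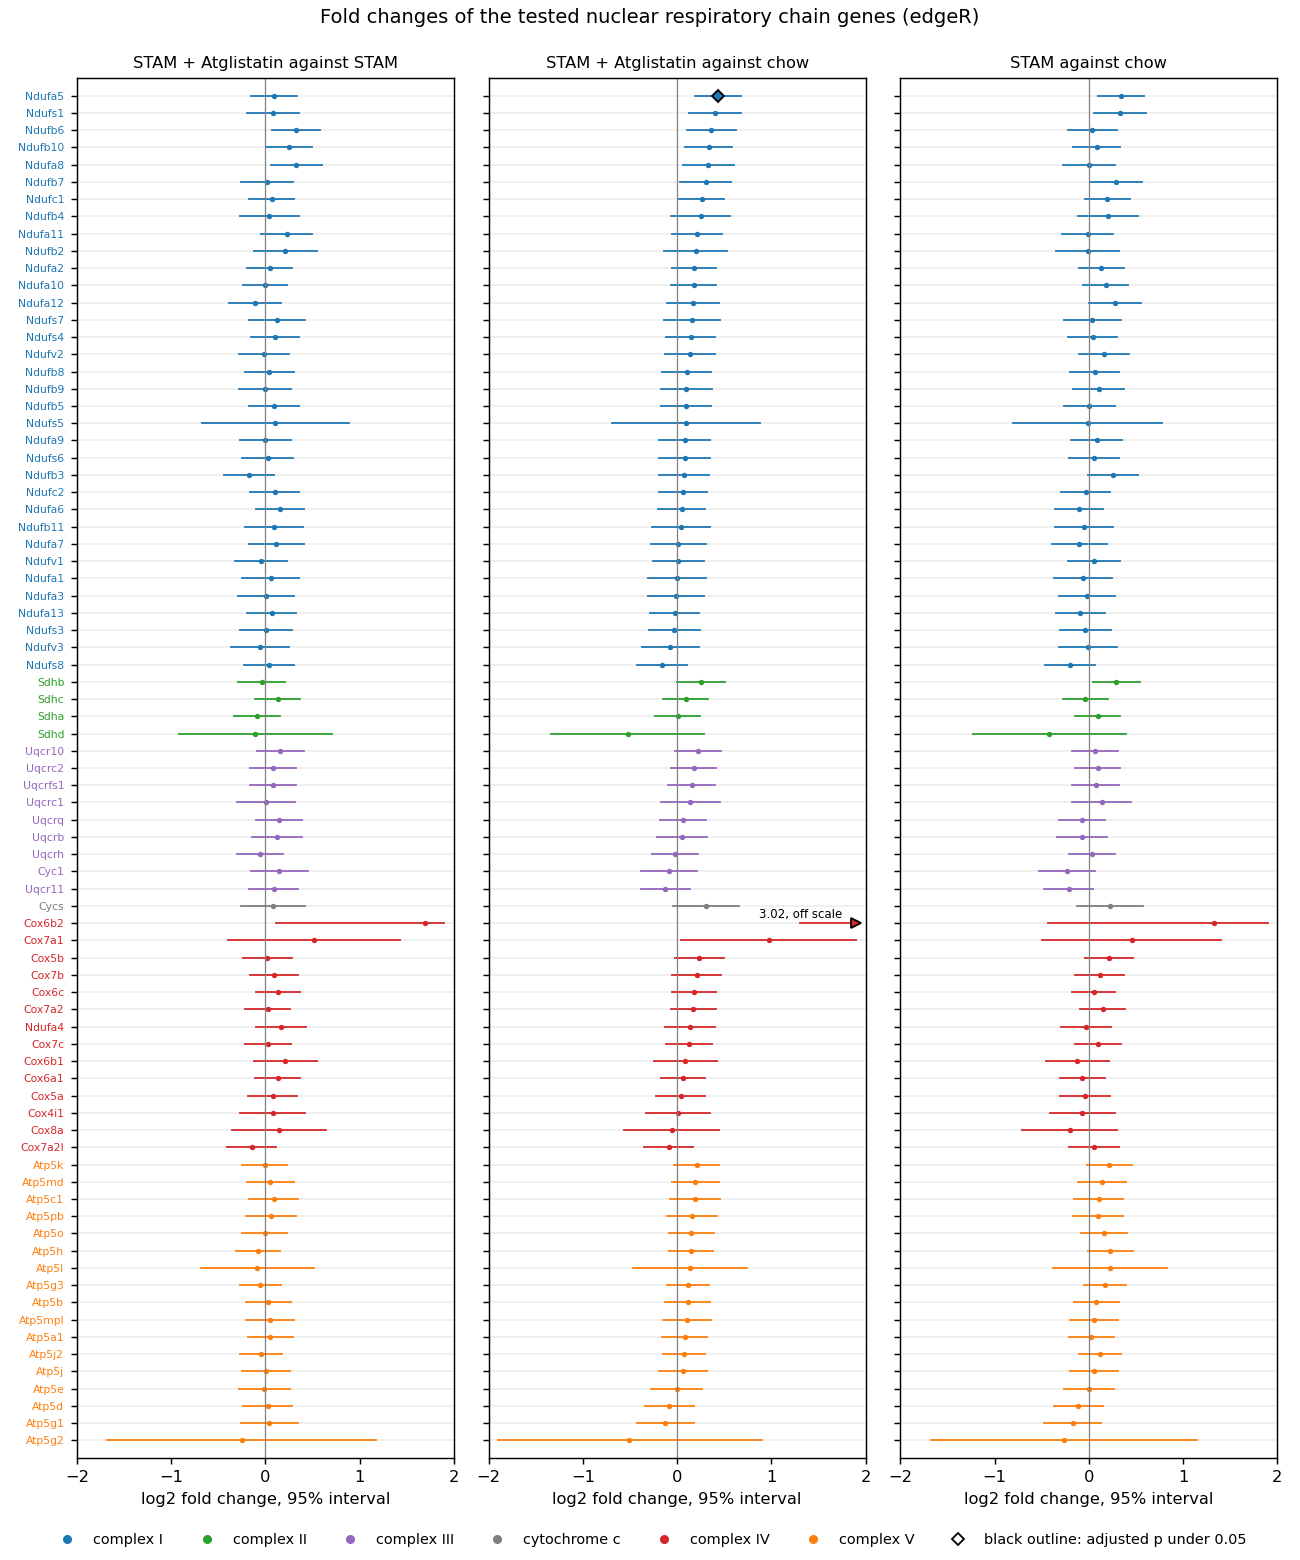
Log2 fold changes with 95% intervals of the tested members described here in the 3 comparisons, grouped and coloured by complex and ordered by STAM + Atglistatin over chow within each complex; black outlines mark an adjusted p under 0.05. Ndufa5 and Cox6b2 (at 3.02, beyond the axis) are the outlined genes, and the widest intervals belong to low-count genes such as Atp5g2 and to Sdhd.

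Complex II feeds electrons from succinate and is encoded wholly in the nucleus. Its iron-sulfur subunit Sdhb was at 690, 592 and 541 CPM in STAM + Atglistatin, 590, 599 and 686 CPM in STAM, and 495, 534 and 499 CPM in chow. The chow libraries were the 3 lowest, and the log2 difference was 0.25 ± 0.12 for STAM + Atglistatin (edgeR adjusted p = 0.330) and 0.29 ± 0.12 for STAM (0.237). The flavoprotein gene Sdha averaged 392 ± 37.8 CPM in STAM + Atglistatin, 417 ± 12.8 in STAM and 390 ± 24.3 in chow, and the anchor gene Sdhc 174 ± 7.74, 159 ± 1.13 and 164 ± 12.2 CPM in the same order (SD, n = 3 each). The other anchor gene, Sdhd, behaved differently from these, at 36.0, 95.7 and 193 CPM in STAM + Atglistatin, 163, 88.0 and 98.3 CPM in STAM, and 102, 192 and 174 CPM in chow. High and low values occurred in every group, and its log2 difference over chow was -0.53 ± 0.39 for STAM + Atglistatin (edgeR adjusted p = 0.601). It was called lower than chow when no filter on low counts was applied, the only member called lower in any analysis run.

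In complex III, 0 of 9 members passed in any of the 3 comparisons. The small subunit gene Uqcrq averaged 979 ± 108 CPM in STAM + Atglistatin, 888 ± 42.0 in STAM and 935 ± 74.9 in chow (SD, n = 3 each). The Rieske iron-sulfur protein gene Uqcrfs1 was at 213, 190 and 196 CPM in STAM + Atglistatin, 174, 186 and 206 CPM in STAM, and 175, 170 and 193 CPM in chow, with overlap between all groups. Cytochrome c1 (Cyc1) was at 191, 167 and 143 CPM in STAM + Atglistatin, 138, 137 and 177 CPM in STAM, and 162, 193 and 175 CPM in chow, and its log2 difference for STAM over chow, -0.23 ± 0.14, was the farthest from 0 in this complex (edgeR adjusted p = 0.508). The core proteins Uqcrc1 and Uqcrc2 differed from chow by 0.14 ± 0.15 and 0.17 ± 0.11 in STAM + Atglistatin. Uqcr10 had the largest difference over STAM, 0.16 ± 0.12 (edgeR adjusted p = 0.752). Somatic cytochrome c (Cycs) was at 70.6, 64.7 and 59.2 CPM in STAM + Atglistatin, 60.8, 72.3 and 50.8 CPM in STAM, and 45.6, 48.0 and 64.1 CPM in chow. Its log2 difference over chow was 0.31 ± 0.16 for STAM + Atglistatin (edgeR adjusted p = 0.408).

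In complex IV no member other than Cox6b2 passed in any comparison, and several varied between libraries of 1 group. All 11 accessory subunits tested had a log2 fold change above 0 for STAM + Atglistatin over STAM, from 0.021 to 0.21, and 0 of them passed. That count rests on single libraries: it was 8 of 11 without STAM + Atglistatin replicate 4, with values from -0.15 to 0.14, 9 without replicate 5 or 6, and 8 without STAM replicate 1 or 2. Cox6c averaged 849 ± 42.4 CPM in STAM + Atglistatin, 775 ± 35.8 in STAM and 749 ± 65.2 in chow (SD, n = 3 each). Cox5a and Cox5b differed from chow by 0.036 ± 0.13 and 0.24 ± 0.12 in STAM + Atglistatin. Cox6a1, whose muscle isoform is Cox6a2, averaged 735 ± 57.3 CPM in STAM + Atglistatin, 672 ± 50.3 in STAM and 704 ± 28.3 in chow (SD, n = 3 each). Cox8a was at 174, 200 and 92.7 CPM in STAM + Atglistatin, 111, 111 and 200 CPM in STAM, and 169, 170 and 145 CPM in chow. Cox6b1 was at 397, 369 and 253 CPM in STAM + Atglistatin, 266, 257 and 358 CPM in STAM, and 317, 322 and 320 CPM in chow. Cox4i1 was at 598, 439 and 362 CPM in STAM + Atglistatin, 420, 376 and 532 CPM in STAM, and 430, 484 and 477 CPM in chow. All 3 were lowest in STAM + Atglistatin replicate 6 and STAM replicates 1 and 2, a likeness noticed after their values were seen, and the chow libraries were closer to each other than those of the other groups. Cox7a2l, which links complexes III and IV in supercomplexes, was at 132, 104 and 120 CPM in STAM + Atglistatin, 136, 131 and 128 CPM in STAM, and 123, 136 and 121 CPM in chow.

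Isoforms known from muscle, heart or hypoxic tissue had low counts, and Cox6a2, Cox8b and Ndufa4l2 had too few to be tested. Cox7a1, the heart and muscle isoform of subunit 7a, was at 7.12, 6.63 and 6.05 CPM in STAM + Atglistatin, 4.20, 6.02 and 3.61 CPM in STAM, and 3.40, 1.33 and 5.47 CPM in chow. All STAM + Atglistatin values were above the others, by a log2 difference of 0.97 ± 0.44 over chow (edgeR adjusted p = 0.314) and 0.52 ± 0.43 over STAM (0.790). Its share of the counts of Cox7a1 and the ubiquitous Cox7a2 was 0.901% to 0.924% in STAM + Atglistatin, 0.474% to 0.836% in STAM and 0.212% to 0.874% in chow. Cox6a2 had 7, 4 and 8 counts in STAM + Atglistatin, 0, 4 and 2 in STAM, and 2, 3 and 0 in chow. The 24 counts of Cox8b were 10 in STAM + Atglistatin replicate 6 and 14 in STAM replicate 3. Summed skeletal muscle markers were 0.803 to 8.87 CPM in STAM + Atglistatin, 0.709 to 2.40 in STAM and 1.13 to 1.93 in chow, highest in STAM + Atglistatin replicate 6, and their part in these isoform counts was not tested. Ndufa4l2, the hypoxia-induced relative of Ndufa4, had 9, 6 and 0 counts in STAM + Atglistatin, 8, 3 and 1 in STAM, and 14, 11 and 5 in chow. Shmt2 overlaps Ndufa4l2 and Itgad overlaps Cox6a2 on the other strand, so reads of either pair cannot be told apart without strand.

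Of the ATP synthase genes, 0 of 17 were called in each comparison. Their median log2 fold changes were 0.0087 for STAM + Atglistatin over STAM, 0.11 for STAM + Atglistatin over chow and 0.10 for STAM over chow. In the same order, 9, 13 and 14 of 17 were above 0. All 7 accessory subunits were above 0 in both comparisons with chow, and 3 of 7 in STAM + Atglistatin over STAM. Chow replicate 7 had the lowest sum over these genes (6668 CPM, against 7532 and 7323 CPM in the further chow libraries). These medians and counts were not repeated without it. The catalytic beta subunit gene Atp5b was at 1076, 889 and 1025 CPM in STAM + Atglistatin, 992, 975 and 960 CPM in STAM, and 850, 989 and 928 CPM in chow. The alpha subunit gene Atp5a1 averaged 1010 ± 58.5 CPM in STAM + Atglistatin, 973 ± 39.7 in STAM and 955 ± 107 in chow (SD, n = 3 each). Subunit c, which forms the rotor ring, is made from 3 genes with the same mature protein. Atp5g3 averaged 1214 ± 35.4 CPM in STAM + Atglistatin, 1260 ± 83.3 in STAM and 1121 ± 48.5 in chow, Atp5g1 175 ± 34.8, 170 ± 18.4 and 191 ± 7.65 CPM in the same order, and Atp5g2 had 176 counts over all libraries, or 0.725 to 2.92 CPM in STAM + Atglistatin, 2.01 to 2.43 in STAM and 0.739 to 3.71 in chow. Reads of a few members may also match near-identical copies. The last 300 bases of each member's longest protein-coding transcript, which may not be the end that was read, were searched in 50-base stretches. Of these stretches, 41.4% for Atp5g2, 70.1% for Atp5l (864 counts) and 54.6% for Ndufs5 (440 counts) also occur in transcripts of other genes. Few reads were counted to the copies themselves: 3, 0 and 0 for those of Atp5g2, and 0, 0, 25 and 9 for those listed for Atp5l. The Ndufs5 copy was not among the gene rows under its name, so its count is not known. Cox7c shared 73.3% (47232 counts), Ndufs3 53.0% (6319 counts) and Uqcrb 40.6% (24311 counts). The part of sharing in any of these counts was not tested. Of 83 members, 62 shared none and 4 shared over 50%. How the authors' counting treated such reads is not given in the sources used here.

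Of 13 mitochondrial protein genes, 8 were tested, and mt-Co2, mt-Co3, mt-Atp8 and mt-Nd4l had 0 counts in all libraries. In STAM over chow 2 of the 8 were called higher (25%, against 3.94% of all genes), and in the other analyses 1 to 5 were. In STAM + Atglistatin against STAM 1 was called lower (12.5%, against 1.79% of all genes), and in the other analyses 1 to 4 were. In STAM + Atglistatin against chow 0 passed by edgeR, 1 was higher at an unadjusted p under 0.05, and at most 1 passed in either direction in any other analysis, DESeq2 and limma-voom included. Log2 fold changes were above 0 for 6 of 8 in STAM over chow, for 0 of 8 in STAM + Atglistatin over STAM and for 4 of 8 in STAM + Atglistatin over chow. The difference between the mitochondrial and the nuclear genes was not tested. The mt-Nd genes of complex I summed to 68870, 77960 and 67640 CPM in STAM + Atglistatin, 84170, 87050 and 93900 CPM in STAM, and 60330, 61700 and 76440 CPM in chow. The nuclear genes of complex I summed to 8328, 7364 and 7293 CPM in STAM + Atglistatin, 6928, 7310 and 7745 CPM in STAM, and 6516, 7356 and 7155 CPM in chow. Within a library, the ratio of the first sum to the second was 8.27, 10.6 and 9.27 in STAM + Atglistatin, 12.2, 11.9 and 12.1 in STAM, and 9.26, 8.39 and 10.7 in chow. The 3 STAM libraries lay above all others in this ratio, and the STAM + Atglistatin and chow libraries overlapped. As 3' counts are not scaled to molecules across the 2 genomes, only the differences between libraries are read. Of the single genes, mt-Nd5 rose in STAM over chow by 0.71 ± 0.12 (edgeR adjusted p = 0.00187) and fell by 0.68 ± 0.12 in STAM + Atglistatin against STAM (0.00455); both calls held in all 15 other analyses. The mt-Nd4 gene rose in STAM over chow by 0.53 ± 0.12 (edgeR adjusted p = 0.0212). Leaving out STAM replicates 2 or 3 or chow replicate 8 ended that call (up to 0.112). These 2 comparisons share the STAM libraries. Hepatocyte markers were lowest in the same STAM libraries, as given above, and their part in the ratio was not tested.

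**Figure D5:**
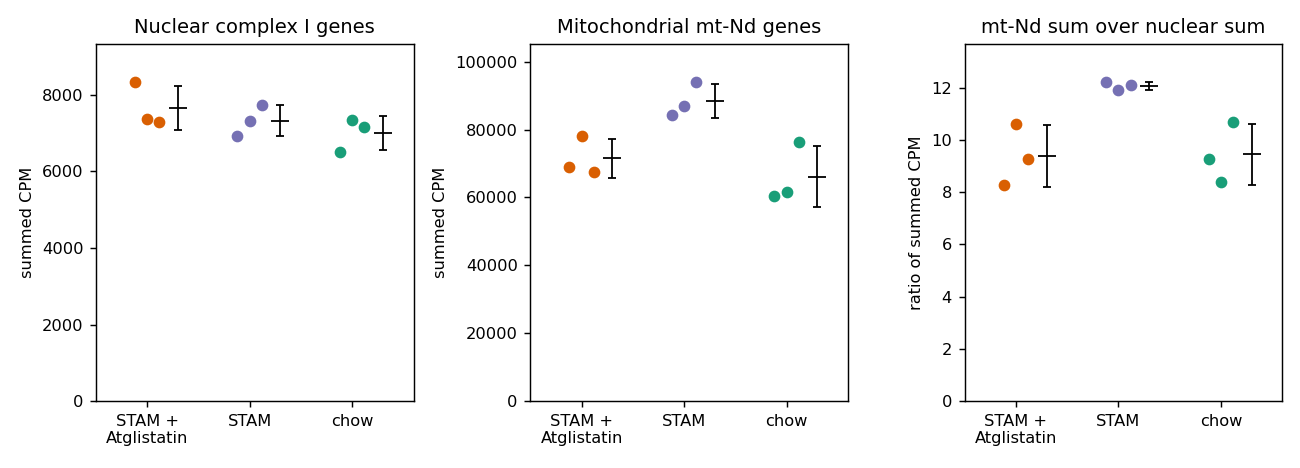
Summed CPM of the 36 nuclear complex I genes (left), of the mitochondrial mt-Nd genes (middle) and their ratio (right) in each library, with mean and SD of 3 libraries, for STAM + Atglistatin, STAM and chow. The nuclear sums overlap between groups, while the 3 STAM ratios, 11.9 to 12.2, lie above the other 6, 8.27 to 10.7.

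Genes that assemble, feed or regulate the chain were counted list by list. In each comparison 0 of 16 complex I, 4 complex II, 6 complex III and 4 ATP synthase assembly genes passed by edgeR and in all other analyses run, with 0 to 1 in either direction per list at an unadjusted p under 0.05. Of 20 complex IV assembly genes tested, 2 passed in STAM + Atglistatin against chow (10%, against 4.08% of all genes), 1 in STAM + Atglistatin against STAM (5%, against 1.79%) and 0 in STAM against chow. Sco2, a copper-delivery factor, fell with Atglistatin, to 50.5, 35.8 and 34.4 CPM in STAM + Atglistatin, against 61.3, 58.3 and 67.1 CPM in STAM and 61.0, 61.1 and 62.1 CPM in chow. The log2 difference was -0.63 ± 0.16 against STAM (edgeR adjusted p = 0.0459) and -0.61 ± 0.16 against chow (0.0326). Each call held in 8 of 15 other analyses (adjusted p up to 0.230 and 0.160). Both were lost without STAM + Atglistatin replicates 5 or 6, STAM replicate 1 or chow replicates 8 or 9, that against STAM also without STAM replicates 2 or 3, and that against chow also with library totals and with only the 2 groups compared. Cox10, which makes the haem precursor for complex IV, rose over chow in STAM + Atglistatin by 0.66 ± 0.18 (edgeR adjusted p = 0.0452), a call that held in 6 of 15 other analyses (0.00492 to 0.218) and was lost without any library other than chow replicate 7. Without chow replicate 7 it also passed in STAM over chow (0.0435). Of 13 coenzyme Q synthesis genes, 1 passed against chow in each STAM group (7.69%, against 4.08% and 3.94% of all genes). It was Coq8a, which fell to 82.6, 71.6 and 86.5 CPM in STAM + Atglistatin (log2 -1.08 ± 0.14, edgeR adjusted p = 7.35e-05) and to 93.3, 110 and 124 CPM in STAM (-0.63 ± 0.13, 0.00919), against 158, 177 and 172 CPM in chow; without STAM replicate 1 the second call was lost (0.0899).

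Of 8 adenine nucleotide, phosphate and uncoupling carriers tested, 1 passed against chow in each STAM group (12.5%), the uncoupling protein gene Ucp2. The share of all genes was 4.08% in STAM + Atglistatin and 3.94% in STAM. Ucp2 rose, with 55.7, 56.0 and 46.4 CPM in STAM + Atglistatin, 47.7, 35.2 and 38.1 CPM in STAM, and 18.9, 10.7 and 14.5 CPM in chow. Its log2 difference over chow was 1.83 ± 0.20 in STAM + Atglistatin (edgeR adjusted p = 1.61e-05) and 1.45 ± 0.20 in STAM (0.00022), and both calls held in all 15 other analyses. Of 15 regulators of respiratory gene transcription tested, 1 passed against chow in each STAM group (6.67%, against 4.08% and 3.94% of all genes). Esrra, the gene of ERR-alpha, rose to 19.9, 20.5 and 19.5 CPM in STAM + Atglistatin (log2 0.84 ± 0.20, edgeR adjusted p = 0.0208) and 23.7, 18.5 and 16.8 CPM in STAM (0.82 ± 0.20, 0.0255), against 10.7, 11.6 and 11.1 CPM in chow. These calls held in 11 and 10 of 15 other analyses, with adjusted p up to 0.0777 and 0.171, and both were lost without chow replicate 8 or 9. That in STAM + Atglistatin was also lost without its replicates 4 or 5, and that in STAM without STAM replicates 1 or 2 or chow replicate 7. The coactivator gene Ppargc1a was at 13.2, 10.1 and 16.5 CPM in STAM + Atglistatin, 15.3, 18.9 and 7.93 CPM in STAM, and 8.03, 11.2 and 17.3 CPM in chow, with overlap between all groups. Its log2 difference was -0.081 ± 0.32 for STAM + Atglistatin over STAM (edgeR adjusted p = 0.972), 0.14 ± 0.32 for STAM + Atglistatin over chow (0.913) and 0.22 ± 0.32 for STAM over chow (0.847). Of 8 electron donors to coenzyme Q, 0 passed in any comparison by edgeR and at most 1 in any other analysis, with 2, 1 and 2 at an unadjusted p under 0.05 in STAM + Atglistatin over chow, STAM + Atglistatin over STAM and STAM over chow, against 14.8%, 10.2% and 14.5% of all genes.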

How the data were processed

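Liver RNA was sequenced from 3' ends (Lexogen QuantSeq, per the labels' protocols). The table deposited by the authors gives unscaled read counts for each gene and library, with the authors' own log2 fold changes and adjusted p-values for 3 comparisons, 1 of which was turned round in sign to match. STAR and GRCm38 are named in the submitters' processing notes. For counting, no tool, annotation, strand setting or treatment of reads with several matches is given in the sources used here. All columns of per-sample values were mapped to a library (0 left over).

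Counts were analysed with edgeR 4.0.16 in R 4.3.3: TMM scaling, filterByExpr, a quasi-likelihood fit of 3 group means over 9 libraries, and Benjamini-Hochberg adjustment over 12660 genes, with calls at 0.05. CPM are TMM-scaled, and errors of log2 differences are SEs. Alternatives were DESeq2 1.42.0, limma 3.58.1 (voom with sample weights), other scalings, no low-count filter, the 2 compared groups alone, each library left out in turn, and subunits without isoforms and retrocopies. The fitting code was tested on simulated data. Library totals of 7380365 to 9886129 counts set the precision, and binomial intervals are exact (95%).

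Members and gene lists were chosen with earlier results of these data known. Named with values were members past the threshold, in each complex the member with the highest mean CPM and those with the largest differences, a fixed set of core subunits and isoform pairs, and members at the count minimum. From each related list, up to 3 genes past the threshold were named, and Ppargc1a in addition. Members named for an unadjusted p, for groups that do not overlap, or for spread within groups (Cox8a, Cox6b1), and Cox7a2l, were chosen after their values were seen. A core subunit is counted but not reported here by name. Promoter windows are from RefSeq (GRCm38.p6) and gene positions from GENCODE (GRCm38).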

Additional observations from a re-analysis of the deposited data

How the results depend on the processing

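Members called higher over chow in STAM + Atglistatin numbered 2, against 4 with library totals as the scaling (Ndufa5, Ndufs1, Ndufb6 and Ndufb10), 1 with limma-voom, 0 with only the 2 groups compared, 1 among subunits without isoforms and retrocopies, and 0 to 2 when each library was left out in turn. In STAM the number was 0, against 1 (Ndufa5) with library totals and 0 to 1 with a library left out. Library totals moved the members' median log2 fold change to 0.193 in STAM + Atglistatin and 0.147 in STAM over chow, and the median of all genes to 0.078 and 0.086. Without the low-count filter, 1 member, Sdhd, was called lower than chow in STAM + Atglistatin (-0.53), and 392 genes, against 226, were called between STAM + Atglistatin and STAM. With a library left out, genes called ranged from 131 to 332 for STAM + Atglistatin against STAM, 309 to 757 for STAM + Atglistatin against chow, and 291 to 724 for STAM against chow. The cause of these differences was not tested. For the 36 members named by the rule and tested, which leaves out Ndufb6 and Ndufb10, 1620 values under alternatives gave 18 lost calls, 4 gained calls and 20 moves by more than 1 SE. Another sign was seen in 86 of them, 0 of which passed in either analysis. The alternatives for related genes and lists were chosen after seeing the data. No paired analysis was possible because the groups share no replicate numbers. Low counts limit the isoforms.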

Other observations

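Some relatives of the members were left outside the rule by their names, and 0 of the 3 described here passed by edgeR in any comparison. Ndufb1-ps, which carries the pseudogene mark in the table, had 14452 counts in all. It was at 186, 167 and 228 CPM in STAM + Atglistatin, 173, 185 and 172 CPM in STAM, and 156, 185 and 191 CPM in chow. Its values overlapped between all groups, with log2 differences of 0.13 for STAM + Atglistatin over STAM (adjusted p = 0.828), 0.13 for STAM + Atglistatin over chow (0.741) and -0.0049 for STAM over chow (0.993). Ndufab1, the acyl carrier protein that is also a complex I subunit, had 8965 counts and log2 differences of 0.16, 0.11 and -0.053 in these comparisons. Atpif1, which inhibits ATP hydrolysis by ATP synthase, had 5810 counts and differences of 0.14 ± 0.16, 0.30 ± 0.16 and 0.16 ± 0.16 (edgeR adjusted p = 0.857, 0.388 and 0.729).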
